A study of Mus musculus with 6 samples.

Results

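Glucose, lactate and amino acids enter and leave T cells through membrane carriers of the solute carrier (Slc) gene families. The genes described here were taken by name: every row of the count table whose symbol begins with Slc1a, Slc2a, Slc3a, Slc5a, Slc6a, Slc7a, Slc16a, Slc38a or Slc43a followed by a number. This rule used no expression value and gave 57 of 15106 genes. Of these, 55 are transporter genes or the heavy chains that carry them. The other 2 share only a name with a transporter: Slc2a4rg-ps is annotated as a pseudogene, and Slc7a6os is a separate protein-coding gene next to Slc7a6. Both were kept in the counts and left out of sums over transporters.

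Transcripts were counted in T cells sorted from the skin of mice aged 6 weeks that carry a FOXP3-GFP reporter, which makes cells expressing the transcription factor FOXP3 fluorescent. There were 4 libraries of regulatory T cells (Tregs, the FOXP3-expressing T cells that restrain immune responses) and 2 of effector T cells (Teffs, the other sorted T cell group), all of the same genotype and age and with no treatment named. The labels give neither the gate that defined Teffs nor whether the libraries within a group stem from different animals, so p-values measure the spread between these libraries, which may be partly technical. Counts in genes came to 4902126 to 7468778 per library, and Foxp3 stood at 103 to 233 CPM (counts scaled to a common library size) in Tregs against 11.3 and 7.17 CPM in Teffs. The 10 T cell marker genes summed to 7833 to 15295 CPM, and each had 3 or more counts in every library. Fibroblast and keratinocyte markers stood apart in Treg 3 (3137 and 1542 CPM summed) and were next highest in Teff 1 (466 and 257 CPM), against 34.1 CPM or less in Treg 1, Treg 2 and Treg 4. Markers of other T cells moved with the groups: the CD8 genes Cd8a and Cd8b1 summed to 0.180 to 65.6 CPM in Tregs and to 142 and 93.6 CPM in Teffs, and the 2 gamma-delta T cell genes in the table, of 5 listed, were at 0 in every Treg library and summed to 15.5 and 14.9 CPM in Teffs, where Sox13 had no counts in Teff 2. Epcam, the one Langerhans cell marker in the table, was at 17.9 to 53.2 CPM in Tregs and 1.46 and 0.388 CPM in Teffs. Macrophage and dendritic cell markers summed to 185, 205, 178 and 639 CPM in Treg 1 to Treg 4 and to 301 and 248 CPM in Teffs. In Treg 4, Lyz2 alone gave 464 CPM of this sum. The part of these cells in the group differences was not tested. Values per library are given in the order Treg 1 to Treg 4 and Teff 1, Teff 2. Because whole populations were sequenced, fewer cells that express a gene and less RNA per cell cannot be told apart.

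The families divide the work by substrate. Slc2 proteins (GLUTs) let hexoses such as glucose pass down their gradient, and Slc5 proteins couple sugars, inositol or vitamins to sodium. Slc16 proteins (MCTs) move lactate and related acids with protons. Amino acids are carried by Slc1, Slc6 and Slc38 proteins, mostly with sodium, and by Slc7 proteins, several of which reach the membrane only when bound to the Slc3a2 chain (CD98). T cells are known to raise glucose, glutamine and leucine uptake when they are activated, and leucine and arginine entry feeds the growth kinase mTORC1.

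Many of these genes were missing from single libraries. Each library had 3 or more counts for 23 to 45 of the 57 genes, and 21 of the 57 genes (36.8%) had them in all 6 libraries, against 47.9% of all genes in the table. The number of the 57 genes with any count was 26, 27, 45 and 38 in Treg 1 to Treg 4 and 48 and 39 in Teff 1 and Teff 2. Thinned to the same 4902126 counts, these numbers were 25.7, 26.5, 45.0, 37.2, 47.2 and 39.0, with Treg 1 and Treg 2 again lowest. The 8 transporter genes with the highest mean CPM (Slc38a2, Slc1a5, Slc2a3, Slc5a3, Slc3a2, Slc2a1, Slc6a6 and Slc16a6) were at means of 153 to 529 CPM over the 6 libraries.

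**Figure D1:**
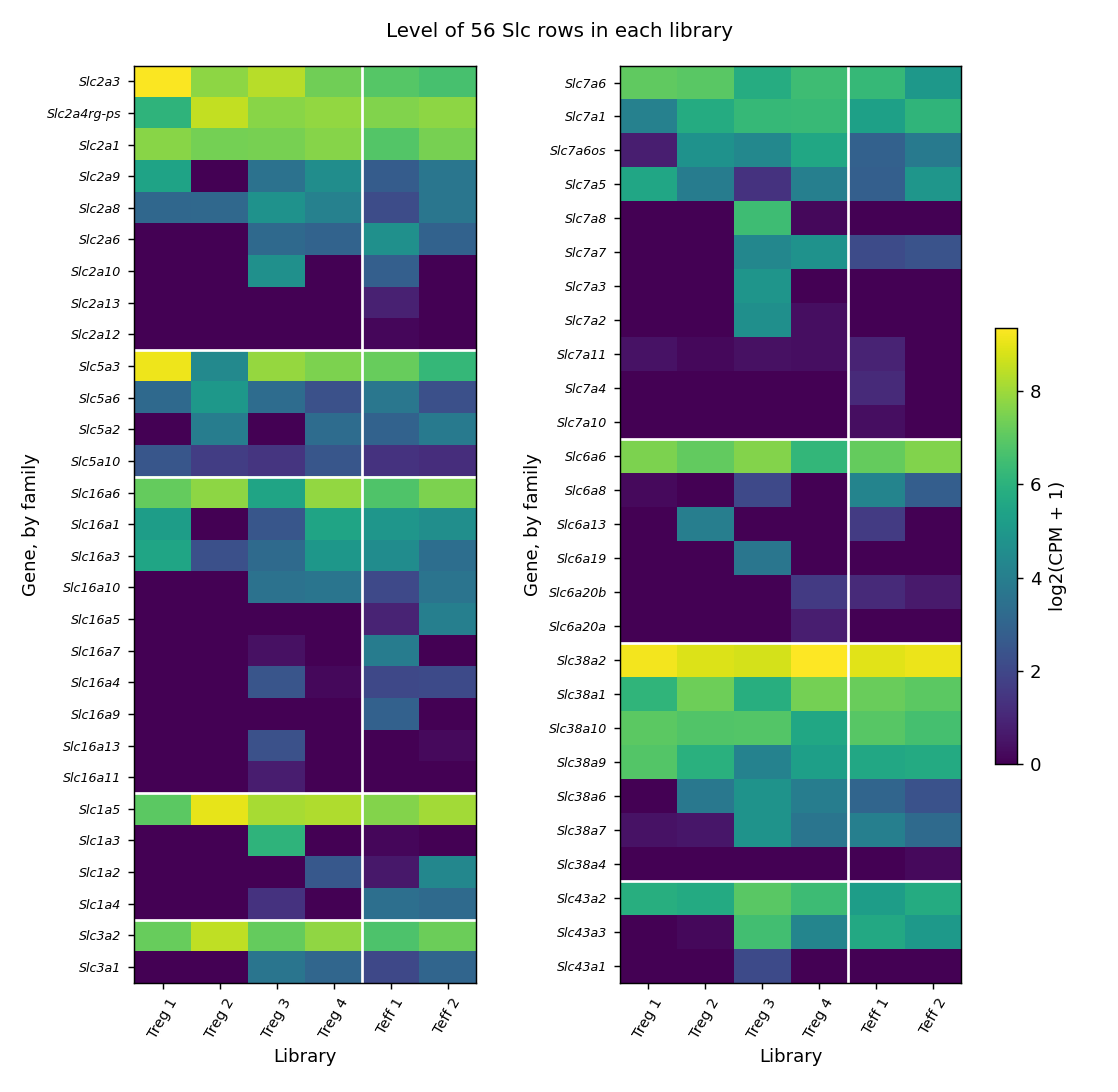
Level of 56 of the 57 genes (rows, grouped by family and ordered by mean level within it) in each of the 6 libraries (columns), on the log2(CPM + 1) scale. The rows at the top of each family are filled in every library, and many others are dark in Treg 1 and Treg 2, where 26 and 27 of the 57 genes had counts.

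Compared per kilobase of exon, which allows genes to be set side by side, the glutamine carrier gene Slc1a5 was at 72.9 ± 37.7 CPM per kb (SD, n = 4) in Tregs. It was followed by Slc3a2 (61.2 ± 28.4), Slc38a2 (60.7 ± 12.1), Slc2a1 (53.3 ± 5.46) and Slc2a3 (46.3 ± 29.4 CPM per kb). No neighbours in this Treg order differed by more than the larger of their SDs. The pseudogene Slc2a4rg-ps, which is no transporter, was at 72.8 ± 40.7 CPM per kb. In Teffs the order of transporter genes was Slc38a2 (58.2 ± 3.80 CPM per kb, SD, n = 2), Slc1a5 (55.5 ± 12.7), Slc2a1 (41.6 ± 11.8) and Slc3a2 (36.5 ± 9.30). Slc16a6 (29.9 ± 10.3), Slc6a6 (19.6 ± 4.21) and Slc38a10 (16.9 ± 2.71 CPM per kb) came before Slc2a3, at 15.0 ± 2.03 CPM per kb.

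None of the 57 genes differed between Tregs and Teffs past the threshold. The question of the design is how these populations differ, and 38 of the 57 genes had enough counts to be tested. In edgeR's quasi-likelihood test with Benjamini-Hochberg adjustment over all 11775 genes tested, 0 of the 38 passed an adjusted p of 0.05, where 0.0425% of all genes passed (0.034% higher and 0.00849% lower in Tregs), and the lowest adjusted p was 0.826. Unadjusted p was under 0.05 for 1 of the 38 (2.63%), against 4.73% of all genes. DESeq2 called 0 of the 38, where it called 1.55% of all genes, and gave 1 of them (2.63%, Slc2a3) an unadjusted p under 0.05, against 6.04%. The authors' deposited table lists 0 of the 57 at an FDR under 0.05, where it lists 0.285% of all genes, and 2 at a p under 0.05 (3.51%, against 2.91% of all genes), Slc16a5 and Slc2a3. The median log2 fold change of the 38, Treg minus Teff, was 0.16, beside 0.07 for all genes tested, and 24 of the 38 (63.2%) lay above 0, beside 53.4%. Every Treg library exceeded every Teff library for 2 of the 38 (5.26%), Slc2a3 and Slc5a10, where 5.51% of all genes did so. Every Treg library was under every Teff library for 2 (5.26%), Slc1a4 and Slc6a8, where 9.49% of all genes did so. At least 1 library had no counts for 16 of the 38 (42.1%), against 33.4% of all genes tested. The shares with separated groups are near or under the background.

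**Figure D2:**
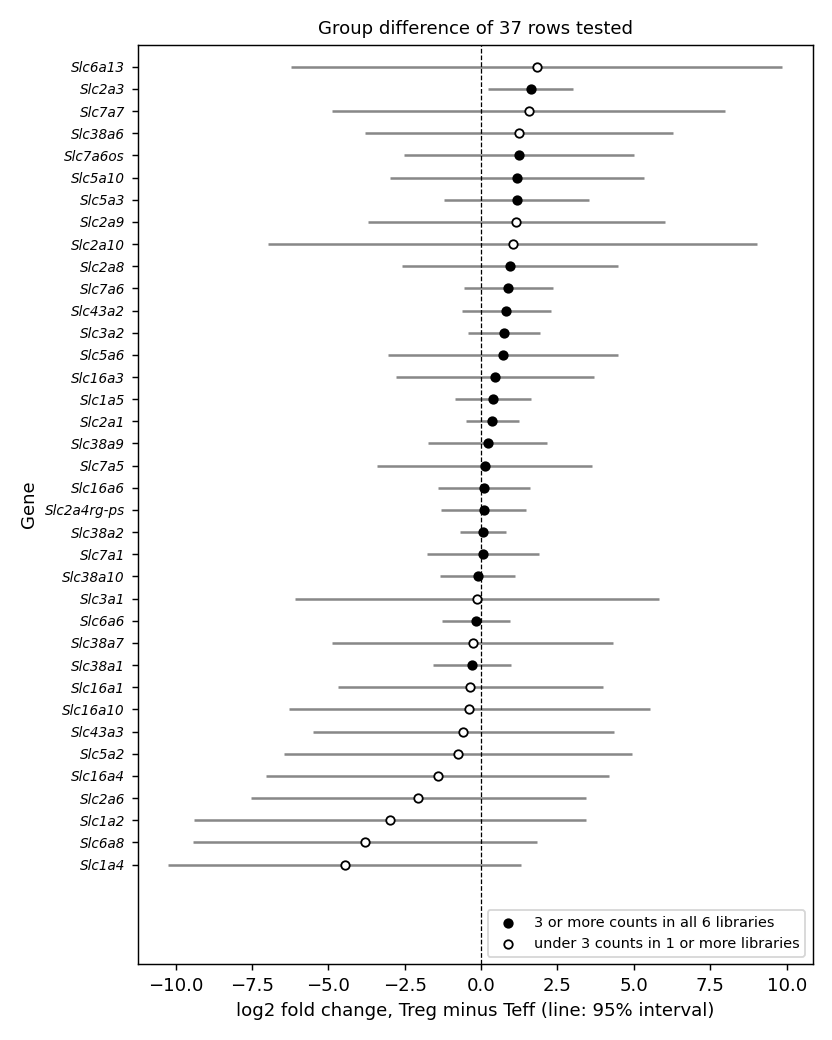
log2 fold change, Treg minus Teff, of 37 of the 38 genes tested (points) with its 95% interval (lines) from edgeR's quasi-likelihood fit. Filled points have 3 or more counts in all 6 libraries. Slc2a3 has an interval that lies above 0 (0.22 to 3.02 before any adjustment over genes), and many intervals of genes with open points are wider than 6 log2 units.

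The intervals set what could be seen. A 95% interval of the log2 fold change lay within 1 either way for Slc38a2 alone of the 38 and within 1.5 either way for 5. It was wider than 6 for 23, so large differences in those were not detectable with these libraries.

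Among the glucose transporters, Slc2a3 was higher in every Treg library than in either Teff library. Slc2a3 encodes GLUT3, a high-affinity glucose carrier of neurons and lymphocytes, and lies on chromosome 6 from 122727809 to 122801640 (GRCm38). Treg libraries held 637, 216, 326 and 162 CPM of it, and Teff libraries 119 and 98.5 CPM. The Treg libraries spread 3.94-fold and the lowest of them, Treg 4, was close to Teff 1. The log2 fold change was 1.62 ± 0.61 (SE), and edgeR's quasi-likelihood test gave an adjusted p of 0.826 over all genes and 0.0284 unadjusted. DESeq2 gave 1.66 ± 0.61 with an adjusted p of 0.220. The authors' deposited table gives a log2 fold change of 1.57 with p = 0.0384. Without any 1 library the log2 fold change stayed between 1.11 (without Treg 1) and 1.86 (without Treg 4), and it was 1.78 without both Treg 3 and Teff 1. The unadjusted edgeR p was 0.0166 to 0.0458 without each Treg library in turn, 0.0796 without Teff 1, 0.129 without Teff 2 and 0.0955 without Treg 3 and Teff 1. Where 1 Teff library remains, the spread comes from the Treg libraries and the lone Teff library is assumed to vary like them.

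Slc2a1 encodes GLUT1, the carrier most cells use for basal glucose uptake (chromosome 4, 119108711 to 119137983). It was among the steadiest of the genes, at 205, 168, 173 and 201 CPM in Tregs and 116 and 175 CPM in Teffs. The ranges of the groups overlapped, since Teff 2 lay above Treg 2 and Treg 3. The log2 fold change was 0.36 ± 0.38, with a 95% interval of -0.51 to 1.23. Within each library, where scaling cancels, the ratio of Slc2a3 to Slc2a1 per kilobase was 1.503, 0.622, 0.913 and 0.389 in Tregs and 0.496 and 0.272 in Teffs. Treg 1 was thus the one library with more Slc2a3 than Slc2a1 per kilobase, and Treg 4 lay between the Teff libraries.

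Other hexose carriers were low and uneven. Slc2a8, which encodes the intracellular carrier GLUT8, was at 7.76, 8.0, 26.3 and 16.1 CPM in Tregs and 3.57 and 11.6 CPM in Teffs. Slc2a6, which encodes the lysosomal carrier GLUT6, had no counts in Treg 1 and Treg 2 and was at 8.24 and 6.85 CPM in Treg 3 and Treg 4, against 24.8 and 6.78 CPM in Teffs. Slc2a9, a urate carrier gene, was at 42.6 CPM in Treg 1, had no counts in Treg 2, and was between 5.56 and 23.0 CPM elsewhere. Slc2a12 and Slc2a13 had no counts in Tregs and 6 or fewer in Teffs.

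The summed level of the 8 Slc2 transporter genes was 893, 391.5, 569 and 409 CPM in Tregs and 277 and 304 CPM in Teffs. The groups did not overlap in this sum, and its mean was 1.95 times as high in Tregs. Without Slc2a3 the sum was 176 to 256 CPM in Tregs and 157 and 205 CPM in Teffs, which overlap, so the separation rested on Slc2a3.

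Of the sodium-coupled Slc5 carriers, Slc5a3 differed 27.6-fold between its highest and lowest libraries. It encodes the inositol carrier SMIT1, which cells use against osmotic stress, and lies on chromosome 16 from 92058322 to 92087473, where exons of Mrps6 and of a gene model share 1.46% of its exonic bases. Tregs stood at 552, 20.0, 234 and 183 CPM and Teffs at 146 and 75.2 CPM. Treg 2 was the lowest of all libraries and the other 3 Treg libraries lay above both Teff libraries. The log2 fold change was 1.16 ± 1.03 (edgeR adjusted p = 1.0). Without any 1 library it lay between 0.40 (without Treg 1) and 1.71 (without Teff 1). Without Treg 2 it was 1.55 ± 0.62, with an edgeR p of 0.0433 unadjusted and 0.864 adjusted over all genes. A block for replicate number gave 0.024. Slc5a10, which encodes the sugar carrier SGLT5, was above both Teff libraries in all Tregs, but near the floor of counting, at 1.75 to 4.71 CPM against 1.59 and 1.36 CPM (log2 fold change 1.17 ± 1.8). Exons of antisense genes overlap 16.8% of its exonic bases, and whether counting used strand is not stated in the sources. Slc5a6, the biotin and pantothenate carrier gene, was at 3.99 to 31.2 CPM in Tregs and 12 and 3.88 CPM in Teffs.

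The lactate carriers showed no group difference beyond their spread. Slc16a1, which encodes MCT1, the lactate carrier of most cells, was at 35.7 CPM in Treg 1, had no counts in Treg 2, and was at 4.73 and 42.8 CPM in Treg 3 and Treg 4. It was at 29.1 and 23.8 CPM in Teffs, inside the Treg range. Slc16a3, which encodes MCT4, the lactate exporter of glycolytic cells, was at 44.9, 3.84, 8.41 and 29.8 CPM in Tregs and 22.2 and 9.50 CPM in Teffs. Both genes were high in Treg 1 and Treg 4 and low in Treg 2 and Treg 3. The log2 fold changes were -0.35 ± 1.88 for Slc16a1 and 0.45 ± 1.4 for Slc16a3 (edgeR adjusted p = 1.0 for each).

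Slc16a6, which encodes MCT7, had the highest mean level per kilobase of this family, 32.2 CPM per kb in Tregs and 29.9 in Teffs. It stood at 140, 216, 43.7 and 229 CPM in Tregs and 110 and 181 CPM in Teffs, with Treg 3 lowest (log2 fold change 0.11 ± 0.65). Antisense exons overlap 22.5% of its exonic bases. Slc16a5 had 7 and 79 counts in Teff 1 and Teff 2 and none in any Treg library, at least 55.3-fold lower in Tregs against 3 counts over the group. Slc16a9 had 49 counts, all in Teff 1. Slc16a7, which encodes MCT2, had 107 counts in Teff 1, none in Teff 2 and 2 over all Tregs. Each of these rests mainly on 1 Teff library, and none was tested in the fit over all 6 libraries.

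Carriers that bring in glutamine and small neutral amino acids were abundant in every library. Slc1a5 encodes ASCT2, an exchanger that imports glutamine (chromosome 7, 16781340 to 16798274). It was at 128, 511, 278 and 301 CPM in Tregs and 194 and 269 CPM in Teffs, with Treg 1 lowest and Treg 2 highest of all libraries (log2 fold change 0.39 ± 0.54). Slc38a2 encodes SNAT2, a sodium-coupled carrier that rises when amino acids are scarce (chromosome 15, 96687392 to 96699730). It was the steadiest gene of the list, at 593, 465, 429.5 and 658 CPM in Tregs and 491 and 538 CPM in Teffs. Its highest and lowest libraries differed 1.53-fold, the Teff values lay inside the Treg range, and the 95% interval of its log2 fold change was -0.68 to 0.80.

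Slc38a1, which encodes the related glutamine carrier SNAT1, was at 68.7, 155, 57.9 and 167 CPM in Tregs and 150 and 127 CPM in Teffs (log2 fold change -0.31 ± 0.55). Slc38a9, a lysosomal arginine sensor upstream of mTORC1, was at 116, 60.5, 16.8 and 38.1 CPM in Tregs and 48.2 and 51.7 CPM in Teffs. Slc38a10 was at 127, 112, 116 and 46.8 CPM in Tregs and 121 and 96.5 CPM in Teffs. In all 3 genes the Treg range enclosed the Teff values. The 7 Slc38 genes summed to 674 to 935 CPM in Tregs and 833 and 826 CPM in Teffs.

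Slc1a4 and Slc6a8 were the tested genes whose Teff libraries both lay above every Treg library. Slc1a4 encodes ASCT1, a carrier of serine and alanine, and had 73 and 44 counts in the Teff libraries (9.66 and 8.53 CPM). In Tregs it had 9 counts, all in Treg 3. Slc6a8 encodes the creatine carrier, and had 134 and 31 counts in Teffs (17.7 and 6.01 CPM) and 1, 0, 18 and 0 counts in Treg 1 to Treg 4. Their log2 fold changes were -4.47 ± 2.50 and -3.80 ± 2.44, with edgeR p of 0.112 and 0.157 unadjusted and 1.0 adjusted over all genes. Without Treg 3, which holds nearly all of these Treg counts, the fitted log2 fold changes were -8.84 and -7.26, values that depend on the prior count. The unadjusted edgeR p was 0.0128 for Slc1a4 and 0.0160 for Slc6a8, and the adjusted p 0.380 and 0.383. Without each other library in turn the unadjusted edgeR p was 0.153 to 0.276 for Slc1a4 and 0.196 to 0.472 for Slc6a8. Slc6a6, the taurine carrier gene, was by contrast well expressed in both groups, at 184, 139, 196 and 71.9 CPM in Tregs and 141 and 191 CPM in Teffs.

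The CD98 system pairs the heavy chain gene Slc3a2 with light chains of the Slc7 family. Slc3a2 (chromosome 19, 8706882 to 8723369) was at 143, 356, 142 and 223 CPM in Tregs and 106 and 152 CPM in Teffs. Teff 1 was the lowest library, and Teff 2 lay above Treg 1 and Treg 3. Its log2 fold change was 0.75 ± 0.51, with a 95% interval of -0.42 to 1.91.

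Of the light chains, Slc7a6 had the highest mean per kilobase in both groups (21.7 and 11.7 CPM per kb). It encodes y+LAT2, an exchanger of arginine and glutamine. Slc7a6 was at 133, 123, 54.2 and 86.6 CPM in Tregs and 75.9 and 31.2 CPM in Teffs (log2 fold change 0.89 ± 0.64). Only Treg 3 lay within the Teff range. Slc7a5, which encodes LAT1, the leucine carrier that activated T cells are known to need, was lower and uneven at 45.1, 14.4, 1.58 and 15.4 CPM in Tregs and 6.22 and 29.1 CPM in Teffs (log2 fold change 0.12 ± 1.52). Slc3a2 stood 3.34 to 94.7 times above Slc7a5 per kilobase in Tregs and 17.8 and 5.49 times above it in Teffs. Slc7a7, which encodes y+LAT1, had no counts in Treg 1 and Treg 2, and was at 18.9 and 26.5 CPM in Treg 3 and Treg 4 and 3.44 and 4.26 CPM in Teffs. Slc7a11, which encodes the cystine carrier xCT, was close to absent, with 7 counts over all Tregs and 7 in Teff 1.

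The cationic amino acid carrier gene Slc7a1, which encodes CAT1, was at 16.4, 53.8, 75.9 and 77.6 CPM in Tregs and 38.7 and 69.0 CPM in Teffs. Its log2 fold change was 0.06 ± 0.79 and its sign turned with upper-quartile scaling. Slc43a2, which encodes the neutral amino acid carrier LAT4, was at 58.1, 51.2, 125 and 83.6 CPM in Tregs and 35.7 and 53.7 CPM in Teffs, where only Treg 2 lay below Teff 2 (log2 fold change 0.83 ± 0.64). Slc43a3, a purine nucleobase carrier gene, had no counts in Treg 1 and 1 in Treg 2, and was at 90.8 CPM in Treg 3, 18.1 CPM in Treg 4 and 49.4 and 32.4 CPM in Teffs.

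The remaining tested genes were low and in most cases missing from whole libraries. Slc38a6 and Slc38a7 ran from 0 to 27.0 and from 0.361 to 27.2 CPM in Tregs, and from 4.07 to 7.28 and 8.33 to 15.6 CPM in Teffs. Slc3a1, the other heavy chain gene, and Slc16a10, which encodes an aromatic amino acid carrier, had no counts in Treg 1 and Treg 2 and reached 11.4 CPM at most. Slc1a2, which encodes the glutamate carrier GLT-1, was at 19.4 CPM in Teff 2 and 4.99 CPM in Treg 4, and had 4 counts in Teff 1 and none in the other libraries. Slc5a2, which encodes the kidney glucose carrier SGLT2, was listed at 0 in Treg 1 and Treg 3 and at 6.75 to 14.6 CPM in the other 4. Slc6a13 had 95 counts in Treg 2 and 16 in Teff 1, and Slc16a4 had 26, 1, 23 and 17 counts in Treg 3, Treg 4, Teff 1 and Teff 2.

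Of the rows that are no transporter, Slc2a4rg-ps was at 66.7, 362, 206 and 232 CPM in Tregs and 194 and 215 CPM in Teffs, and Slc7a6os at 0.722 to 46.2 CPM in Tregs and 6.49 and 13.2 CPM in Teffs. Of the 19 genes that were not tested, Slc16a11, Slc2a12, Slc38a4, Slc6a20a, Slc7a10, Slc2a13 and Slc7a4 had fewer than 10 counts over all 6 libraries. Slc6a20b had 14 counts in Treg 4, 9 in Teff 1 and 3 in Teff 2. Over the 57 genes, 7 were without counts in all Tregs and 7 in both Teffs.

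**Figure D3:**
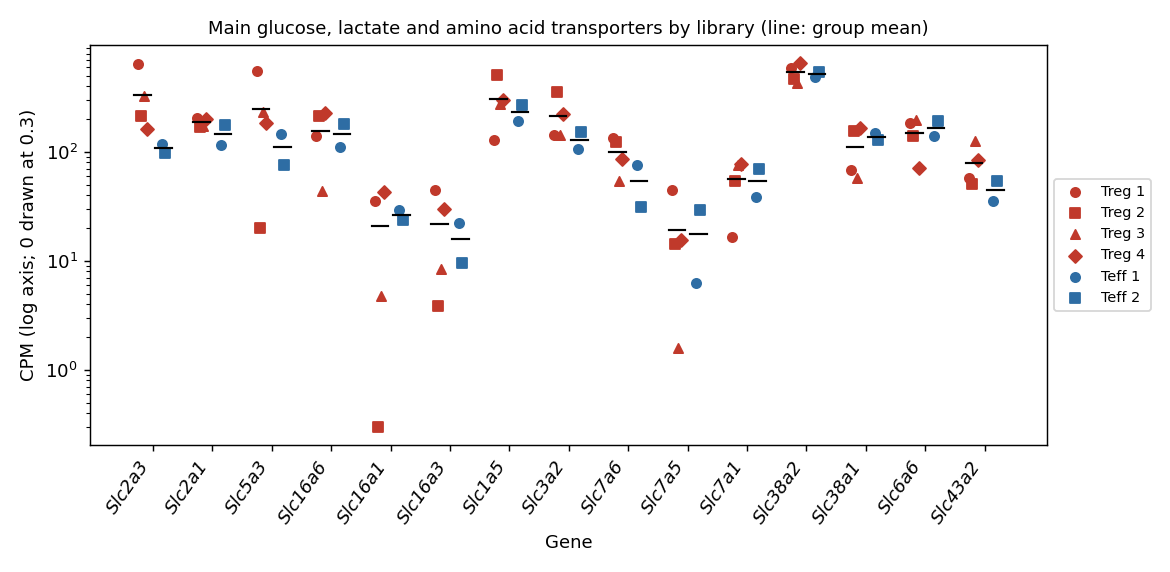
Level in CPM (log axis, 0 drawn at 0.3) of 15 transporter genes in each library, with Tregs in red, Teffs in blue and a line at each group mean. Slc2a3 shows all 4 Treg libraries above both Teff libraries, Slc38a2 and Slc2a1 show the narrowest spread, and Slc5a3, Slc16a1 and Slc7a5 show Treg libraries on either side of the Teffs.

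As a whole, the transporter genes took a larger share of counts in Tregs. The 55 genes summed to 3292, 2747, 2824 and 2777 CPM for Tregs, against 2160 and 2342 CPM for Teffs. The Treg mean was 2910 ± 257 CPM (SD, n = 4) and the Teff mean 2251 ± 129 CPM (SD, n = 2), a ratio of 1.29, and the groups did not overlap. The ratio was 1.32 with DESeq2 size factors, 1.19 with upper-quartile scaling and 1.23 on library totals alone, and the groups stayed apart in each. Of the mean difference of 659 CPM, Slc2a3 made up 226 CPM, Slc5a3 137 CPM, Slc3a2 87.2 CPM and Slc1a5 72.8 CPM. Without Slc2a3 the sums were 2498 to 2655 CPM against 2041 and 2244 CPM, and with upper-quartile scaling these overlapped. Without Slc2a3 and Slc5a3 they overlapped under the scaling used throughout, at 2102 to 2512 CPM against 1895 and 2168 CPM. No test was made of these sums, and the genes left out were chosen after their values were seen.

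The sum over the 10 Slc7 transporter genes was likewise higher in Tregs, at 195, 192, 290 and 207 CPM against 127 and 134 CPM. Of the 290 CPM in Treg 3, 3 genes with counts almost only there (Slc7a8, Slc7a3 and Slc7a2) gave a large part. Without these 3 the sum in Treg 3 was 151 CPM and the groups still did not overlap, with a ratio of means of 1.43. Slc7a6 alone gave 45.8 CPM of the mean difference that was left. Slc7a1, Slc7a5 and Slc7a7 had Treg libraries on either side of both Teff libraries, and Slc7a4, Slc7a10 and Slc7a11 had few counts. The higher sum is therefore not shown to be an excess across the family. Slc7a6 gave 133 of the 195 CPM in Treg 1 and 31.2 of the 134 CPM in Teff 2. With Slc7a6 also left out, Treg 1 lay below Teff 2 and the groups overlapped, so the separation rested on Slc7a6. The sums over Slc1, Slc3, Slc5, Slc6, Slc16, Slc38 and Slc43 genes overlapped between the groups.

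**Figure D4:**
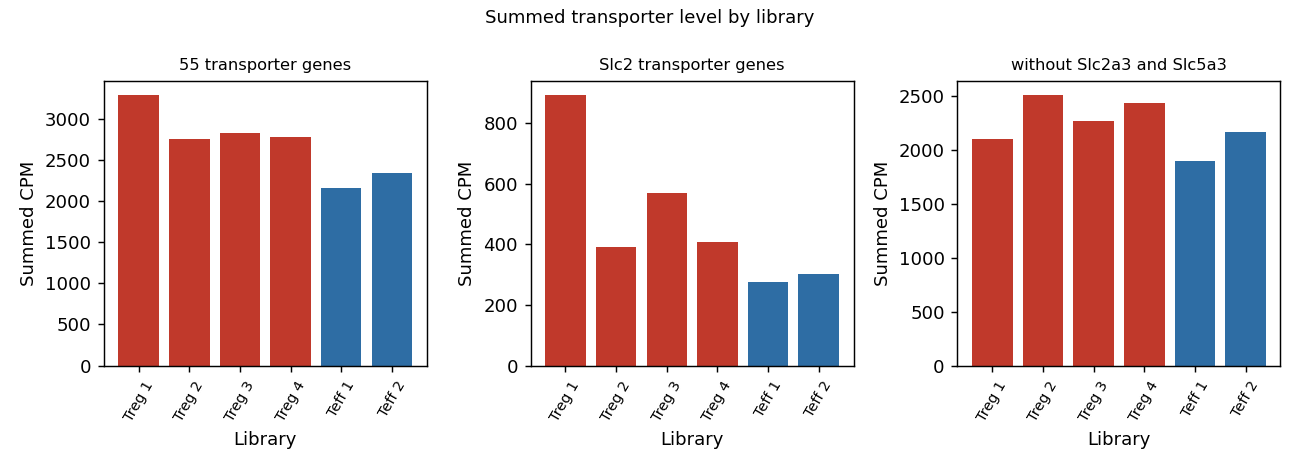
Summed CPM per library of the 55 transporter genes (left), of the 8 Slc2 transporter genes (middle) and of the transporter genes without Slc2a3 and Slc5a3 (right), with Tregs in red and Teffs in blue. The groups do not overlap in the left and middle panels and overlap in the right panel, where Teff 2 (2168 CPM) lies above Treg 1 (2102 CPM).

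A set of transporters had counts almost only in 1 Treg library. Of the 50 genes with 10 or more counts in all, 7 (14%) had at least 90% of their summed CPM in Treg 3, where 5.08% of all such genes in the table did. These were Slc7a8, Slc1a3, Slc7a3, Slc7a2, Slc6a19, Slc16a13 and Slc43a1. In Teff 1 there were 2 such genes (Slc16a7 and Slc16a9), in Teff 2 there was 1 (Slc16a5), and in Treg 1, Treg 2 and Treg 4 there were 0.

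The largest was Slc7a8, which encodes the neutral amino acid carrier LAT2, with 491 counts (86.1 CPM) in Treg 3, 1 in Treg 4 and 0 in the other 4 libraries. Slc1a3, which encodes the glutamate carrier GLAST, had 384 counts in Treg 3 (67.3 CPM) and 1 in Teff 1. Slc7a3 and Slc7a2, which encode the cationic carriers CAT3 and CAT2, were at 28.6 and 24.4 CPM in Treg 3, with 2 counts of Slc7a2 in Treg 4 and none of either in Teffs. Slc6a19 had 67 counts, all in Treg 3, and Slc43a1 had 19, all in Treg 3. Pooled over groups, Slc7a8 was at least 85.1-fold higher in Tregs than 3 counts over the Teffs allow, a value that rests on Treg 3 alone.

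Fibroblast and keratinocyte markers were also highest in Treg 3. This did not hold for all other cells: macrophage and dendritic cell markers were highest in Treg 4 and endothelial markers in Teff 2. The 7 genes summed to 225 CPM in Treg 3 and to 0.132 CPM in Teff 1. They were chosen for having at least 90% of their CPM in Treg 3, which keeps every other library low. Their level in Teff 1 therefore cannot be compared with that of the markers. The 10 fibroblast markers summed to 3137 CPM in Treg 3, where 10 of 10 had 3 or more counts, to 466 CPM in Teff 1 and to 4.42 to 10.8 CPM in the other 4 libraries. Of the 12 keratinocyte markers, 10 are in the table, and they summed to 1542 CPM in Treg 3, 257 CPM in Teff 1, 98.6 CPM in Teff 2 and 24.0 to 34.1 CPM in the other Treg libraries. The fibroblast receptor gene Pdgfra was at 0 in Treg 1, Treg 2, Treg 4 and Teff 2, and so was the keratinocyte factor gene Trp63. Slc2a10, which encodes GLUT10, was at 25.1 CPM in Treg 3, at 6.09 CPM in Teff 1, and without counts in the other 4 libraries. The part of other cell types in these values was not tested.

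**Figure D5:**
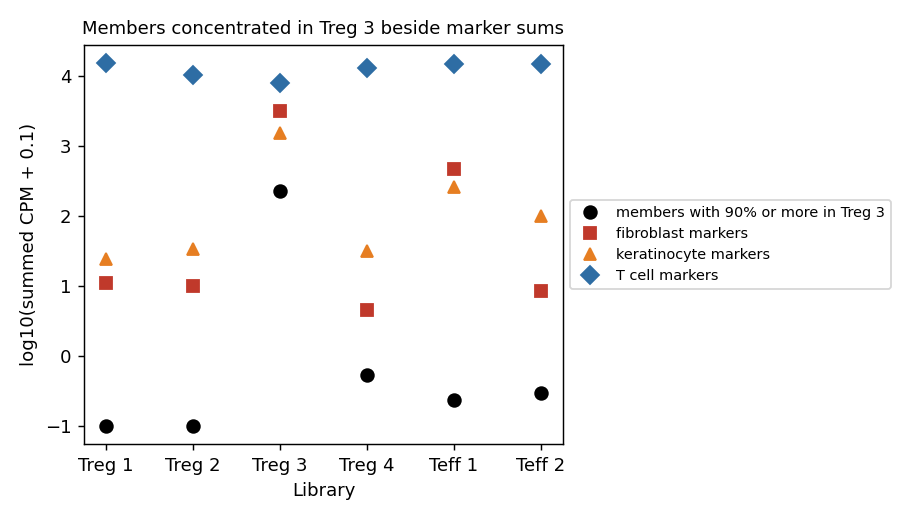
Summed level per library, as log10(summed CPM + 0.1), of the 7 transporter genes with at least 90% of their CPM in Treg 3 (black), of fibroblast (red), keratinocyte (orange) and T cell markers (blue). The 7 genes reach 225 CPM in Treg 3 and 0.428 CPM or less in each other library, and fibroblast and keratinocyte markers are highest in Treg 3 and next in Teff 1.

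Genes that regulate or use what these carriers bring in were not called either. In edgeR's fit, 0 of 21 tested partners and regulators of transporters, 0 of 38 genes of amino acid sensing to mTORC1, 0 of 24 genes of the amino acid response driven by the factor ATF4 and 0 of 23 enzymes that use the substrates passed (adjusted p = 1.0 for every one of them). Their median log2 fold changes were 0.24, 0.35, 0.22 and 0.23, beside 0.07 for all genes tested. Every Treg library exceeded every Teff library for 3 of the 38 genes of amino acid sensing and 1 of the 23 enzymes, and was under every Teff library for 1 gene of amino acid sensing. Over all genes tested these shares were 5.51% and 9.49%. The share of amino acid sensing genes above the Teffs was somewhat over this background, on 3 genes, and the other shares were under it.

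Among these, Sesn1, which encodes a sestrin, a stress-induced inhibitor of mTORC1, was at 95.6, 181, 162 and 119 CPM in Tregs and 85.7 and 20.0 CPM in Teffs (log2 fold change 1.4 ± 0.67). Fnip1, a partner of folliculin at the lysosome, was at 190, 107, 74.3 and 97.3 CPM against 70.0 and 52.7 CPM. Rragc, a lysosomal GTPase gene that recruits mTORC1, lay on the other side at 1.98, 18.1, 58.2 and 33.2 CPM in Tregs against 70.8 and 87.0 CPM in Teffs (log2 fold change -1.5 ± 1.09). Glud1, which encodes glutamate dehydrogenase, was at 249, 810, 271 and 342 CPM against 146 and 204 CPM (log2 fold change 1.25 ± 0.57). In each of these 4 genes the Treg library nearest to the Teffs stood close to them, and none had an unadjusted edgeR p under 0.05.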

How the data were processed

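RNA from sorted skin T cells was sequenced in 6 libraries (4 Treg, 2 Teff). For every gene the authors deposited unnormalized read counts, as the file headers and whole-number values show. Tools listed in the submitters' processing notes are HTSeq 0.6.1, TopHat2 2.0.12, SAMtools 0.1.19.0, CASAVA 1.8.2 and Bowtie2 2.1.0.0, with build mm10. The authors also deposited a log2 fold change and mean log2 CPM per gene, and a p-value and FDR for the same comparison, per the file headers; no source states the test behind them.

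The 3 counter rows that name no gene held 88.0% to 90.2% of all counts in each library and were left out. Counts were scaled by TMM in edgeR 4.0.16 (R 4.3.3), and genes were kept by filterByExpr with a smallest count of 10. The quasi-likelihood F test compared Tregs with Teffs over all 6 libraries, with Benjamini-Hochberg adjustment over 11775 genes; the common biological coefficient of variation was 1.20. The fitting script was tested on simulated counts with less spread than these data. That test does not show how many true changes would be found here. Gene models came from GENCODE on GRCm38, the assembly behind mm10. A library's floor of 3 counts was 0.397 to 0.581 CPM; floors and intervals on counts cover counting error only.

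Named genes were those called, up to 8 per direction with separated groups and the largest change, and a list chosen by role; genes in 1 library only and the remaining low genes were described after their values were seen. The genes and lists were chosen with earlier results of these data known. Alternatives were DESeq2 1.42.0, DESeq2 size factors, upper-quartile scaling, no filter, a mean of at least 10 CPM, a replicate block and leaving out each library. Leaving out Treg 3 and Teff 1 together was added after seeing the data. Values of 1 of the 57 genes are not reported here; it is kept in counts and sums.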

Additional observations from a re-analysis of the deposited data

Results flagged for a closer look

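In 4 of 28 groups of 4 Treg libraries checked, Treg 3 lay apart from the other 3 by Dixon's 95% criterion, which chance meets in about 1 in 20 groups of normally distributed values. That rate does not hold here: where the other 3 libraries are at 0, as for Slc1a4 and Slc43a1, any count in the remaining one meets the criterion. Its level was 86.1 CPM for Slc7a8, 3.33 CPM for Slc43a1, 3.16 CPM for Slc6a8 and 1.58 CPM for Slc1a4, and the other Treg libraries were at 0.180 CPM or less for each. Treg 3 is also the library with the highest summed fibroblast and keratinocyte markers. For Slc7a8 and Slc43a1 both Teff libraries were at 0, whereas for Slc6a8 and Slc1a4 both were above Treg 3.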

How the results depend on the processing

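No transporter gene was called under any of the 13 alternatives, and Slc2a3 kept its direction in each. The comparison rests on 2 Teff libraries, and 36 of the 57 genes had under 3 counts in at least 1 library. Depth limits what a missing count shows, though Treg 2, with 6289509 counts, detected fewer of the genes (27) than the shallowest library, Teff 2 (39). With a mean of at least 10 CPM, 27 of the genes were tested. Of these, 1 had every Treg library above the Teffs (3.7%, against 6.33% of all genes). Every Treg library lay below the Teffs for 0 (0%, against 8.34%). Leaving out libraries, the Treg 3 and Teff 1 pair included, gave 2 to 6 genes above and 2 to 7 below. With fewer libraries more of all genes separate: without Teff 2, 12.5% of the tested transporter genes lay above and 10.4% below, against 8.35% and 18.9% of all genes, and without Treg 3 and Teff 1, 10.5% and 18.4% against 13.9% and 23.8%. Upper-quartile scaling moved the median of all genes from 0.07 to -0.04 and turned the sign of Slc16a6 (-0.013), Slc38a2 (-0.053), Slc7a1 (-0.053) and Slc7a5 (-0.029).

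Leaving out libraries gave log2 fold changes on both sides of 0 for Slc16a1 (-0.96 to 0.13), Slc16a3 (-0.18 to 1.46), Slc16a6 (-0.22 to 0.50), Slc2a8 (-0.13 to 1.98), Slc38a1 (-0.56 to 0.030), Slc38a10 (-0.30 to 0.12), Slc38a2 (-0.054 to 0.16), Slc38a9 (-0.38 to 0.52), Slc5a6 (-0.17 to 1.90), Slc6a6 (-0.54 to 0.057), Slc7a1 (-0.49 to 0.50) and Slc7a5 (-0.75 to 1.62). The cause was not tested.

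Only numbers 1 and 2 occur in both groups. Deviations of libraries with the same number had r = -0.04 and 0.15, and the largest r was 0.33, for Treg 3 with Teff 1. With 2 Teff libraries, each r with Teff 2 is the r with Teff 1 with its sign turned. These values therefore cannot show whether libraries of the same number belong together, and the replicate block is known to share only a number. With the block the median log2 fold change of the transporter genes was -0.41, beside -0.64 for all genes, and edgeR called 15 genes in all, none a transporter. Its sign turned for Slc16a3 (-0.13), Slc38a10 (0.14), Slc7a1 (-0.80) and Slc7a7 (-7.59).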
